A study of Mus musculus with 6 samples.

Results

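The 9 genes described here, Jarid2, Inpp5d, Bach1, Tab2, Cebpb, Ikbke, Ets1, Rhoa and Picalm, have been reported in other work as targets of the microRNA miR-155. Male C57Bl/6N mice gave the islets, whose dispersed cells were kept for 72 h in culture before RNA extraction. Control cells received no exosomes (3 arrays). ExoNOD cells received 50 µg/ml of exosomes that NOD mouse CD4+CD25- T lymphocytes had released (3 arrays); NOD mice are a model of autoimmune diabetes. Islets and exosomes were prepared anew for each of the 3 experiments. The control received no vesicles at all, so an effect of miR-155 and an effect of adding vesicles or any other of their contents cannot be told apart. The genes were found through the RefSeq accession of their array probes, and the probe with the highest mean signal stood for its gene. All 9 were well above background on all 6 arrays and were among 25780 genes tested.

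MicroRNAs are short RNAs that guide an Argonaute protein to messenger RNAs, mainly by pairing of the seed near their 5′ end with a site in the 3′ untranslated region. The bound complex recruits deadenylases, so that a target usually loses some of its messenger RNA as well as its translation, and such losses are often small. miR-155 is made from the transcript of its host gene Mir155hg, is induced in activated lymphocytes and macrophages, and is among the microRNAs that vesicles of T lymphocytes can carry. The question put to these data is whether reported targets were lower in islet cells that had received the exosomes. Neither miR-155 nor Mir155hg was analysed here, and whether the 9 genes are targets in islet cells was not measured.

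The microRNA is shown first because its seed defines which transcripts it can pair with. In the RefSeq sequences (build GRCm38.p6) the mature miR-155-5p lies at chr16:84714143-84714165 and miR-155-3p at chr16:84714182-84714202, both on the plus strand, and the seed, bases 2 to 8, is in capitals.
mmu-miR-155-5p: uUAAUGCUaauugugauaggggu
mmu-miR-155-3p: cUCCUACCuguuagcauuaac
In the hairpin from which both are cut (chr16:84714140-84714204), the capitals mark miR-155-5p.
Mir155 hairpin: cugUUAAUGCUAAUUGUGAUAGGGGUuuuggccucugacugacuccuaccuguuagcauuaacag
A DNA copy of a transcript that pairs with the whole seed of miR-155-5p reads AGCATTA. Among 1738 mature mouse microRNAs in the same sequences, 0 others shared the seed of miR-155-5p and 0 shared that of miR-155-3p. The target transcripts were not searched for these letters here.

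The arrays had similar brightness, with a 75th percentile of signal between 812 and 890, between 78.1% and 81.8% of 43020 spots well above background, and 0 saturated spots. Their number limits the precision. The islet hormone and beta cell markers were present on all arrays, 9 of 9 tested and above background. By scan time, the 3 controls and exoNOD replicate 1 were read in 1 scan and exoNOD replicates 2 and 3 in another, taken as slides 1 and 2. Levels are given on a log2 scale on which 0 is the 75th percentile of the array. Changes are exoNOD minus control on the log2 scale, with the standard error of limma's fit over all genes and 3 arrays per group. Equal replicate numbers varied together across genes, so limma was also run with that number as a block (the replicate block), and its values are given where they change a call. The labels do not state that equal numbers share a preparation. When slide was the block, limma called 0 of 25780 genes (929 had an unadjusted p under 0.05), and each change then equals the difference within slide 1.

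As a group the 9 genes moved little. By group means 5 were lower in exoNOD cells (Jarid2, Inpp5d, Tab2, Ikbke and Bach1) and 4 were higher (Ets1, Cebpb, Rhoa and Picalm), with a median change of −0.08 against 0.04 for all genes tested. Of all genes, 44.6% were lower. In each of the 3 pairs of equal number 3 members were lower (Jarid2, Tab2 and Bach1), as were 22.1% of all genes, and 2 were higher (Ets1 and Picalm), as were 29% of all genes. Without the block 0 members fell and 0 rose in limma at an adjusted p under 0.05, where 0.00388% of all genes fell and 0.101% rose (0.105% in either direction). At an unadjusted p under 0.05 there were 2 members, Jarid2 lower and Ets1 higher, beside 3.37% of all genes lower and 13.3% higher. With the replicate block 1 member fell, Jarid2, 0 rose and 8 did not pass, where 1.83% of all genes fell and 6.93% rose (8.76% in either direction). That split of all genes, 472 falls and 1787 rises, moved with the scaling, to 389 and 863 after quantile normalization and to 2078 and 2100 with arrays scaled by their median. The median change of the 9 genes was −0.02 in the pair of arrays numbered 1, −0.02 in pair 2 and −0.10 in pair 3. With arrays scaled by their median instead, the median change was −0.22 for the members and −0.11 for all genes.

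**Figure D1:**
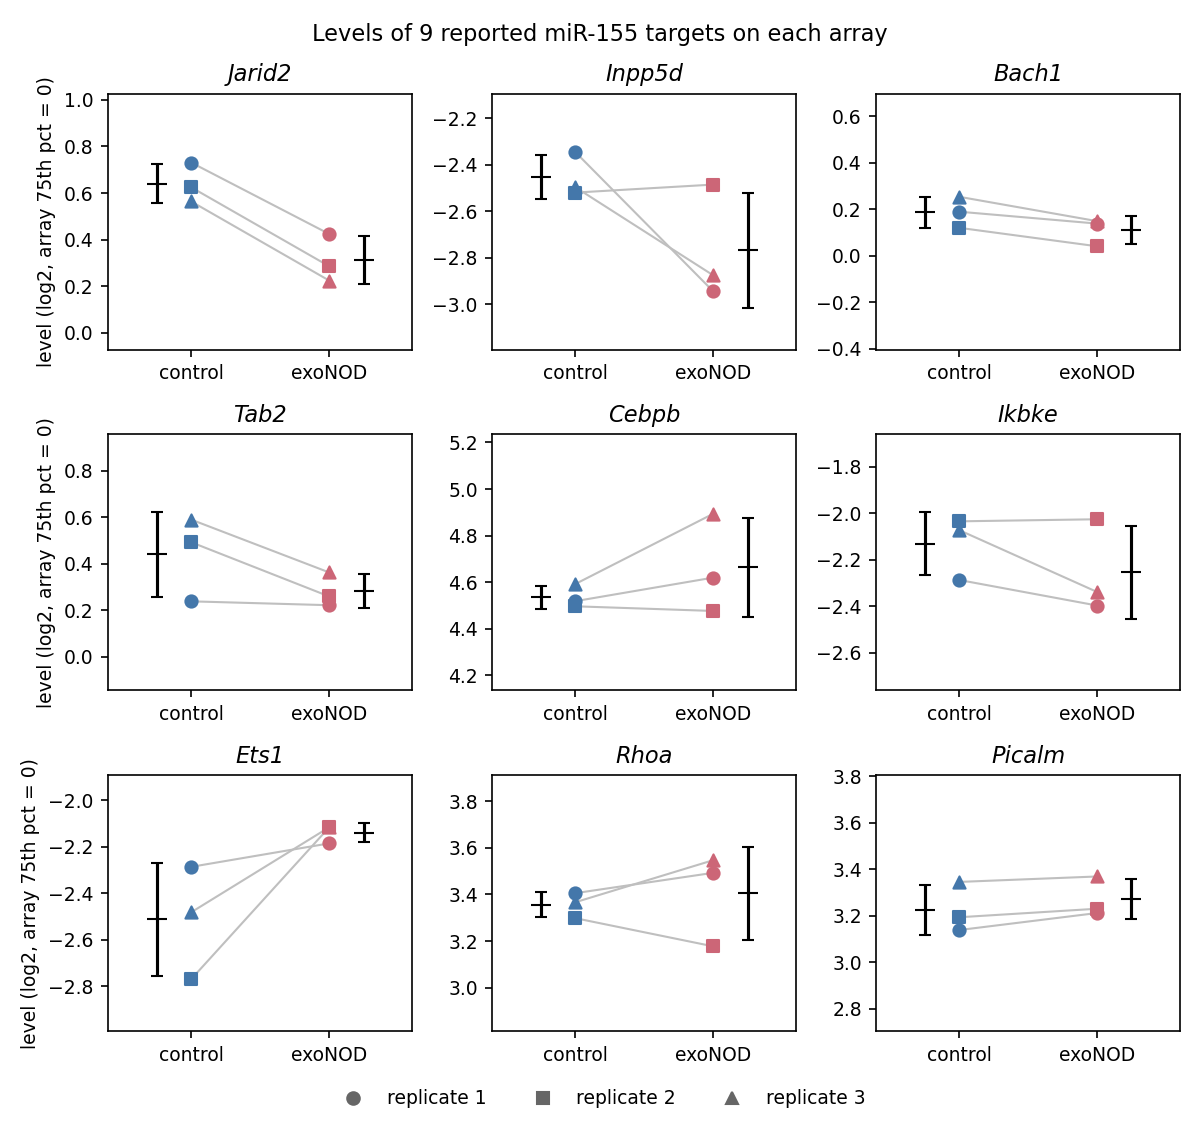
Level of each of the 9 genes on each array (vertical axis, log2 signal relative to the array's 75th percentile; every panel spans the same range) in control and exoNOD cells. Symbols mark replicate numbers, lines join equal numbers, and black bars give the mean ± SD of 3 arrays; the exoNOD arrays all lie below the controls for Jarid2 and above them for Ets1, and the groups overlap for the other 7 genes.

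Among the regulators of chromatin and transcription, Jarid2 encodes an accessory subunit of Polycomb repressive complex 2, which methylates histone H3 at silent genes. Its level was 0.73, 0.62 and 0.56 on the control arrays and 0.42, 0.29 and 0.22 on the exoNOD arrays (replicates 1, 2 and 3). All 3 exoNOD arrays lay below all 3 controls, as they did for 7.78% of all genes. Control cells had a mean of 0.64 ± 0.08 and exoNOD cells one of 0.31 ± 0.10 (SD, n = 3 each), a change of −0.33 ± 0.11 (SE), or 1.26-fold more signal in control cells. The 95% interval of the change ran from −0.57 to −0.09. Over all genes Jarid2 did not pass in limma (unadjusted p = 0.0129, adjusted p = 0.227).

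Within the pairs Jarid2 was lower by nearly the same amount each time, with differences of −0.31, −0.34 and −0.34. With the replicate block its standard error was 0.08 and it fell (limma adjusted p = 0.0362). That call was lost when pair 2 (adjusted p = 0.127) or pair 3 (0.133) was left out, and it did not pass with the block after quantile normalization (−0.31, 0.0565) in the authors' deposited values (−0.31, 0.0621) or with normexp background correction (−0.37, 0.591). On slide 1 the difference between exoNOD replicate 1 and the mean of the 3 controls was −0.22. Markers of beta cells moved with the groups as well. All 9 of them were lower in exoNOD cells, as were 44.6% of all genes, with a median change of −0.37. With the replicate block 6 fell, as did 1.83% of all genes. Their summed signal, in units of the 75th percentile, was between 1084 and 1145 in control and between 1053 and 1064 in exoNOD cells. Most of that sum came from Ins1 (30.6%), Ins2 (37.2%) and Iapp (28.2%). These changed by −0.12, −0.07 and −0.01 and did not pass with the block (limma adjusted p = 0.569, 0.770 and 0.955). The part of beta cells in the levels of Jarid2, and of Pdcd4 described further on, was not tested.

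Bach1 encodes a haem-binding repressor of antioxidant genes, among them haem oxygenase. Its level was 0.19, 0.12 and 0.25 in control and 0.14, 0.04 and 0.15 in exoNOD cells. The groups overlapped, and every exoNOD array lay below the control of its number by at most 0.10. The change was −0.08 ± 0.10 (limma adjusted p = 0.709), with a 95% interval from −0.31 to 0.15.

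Cebpb encodes C/EBP beta, a transcription factor of acute phase and cytokine genes. Its level was 4.52, 4.50 and 4.59 in control and 4.62, 4.48 and 4.89 in exoNOD cells. ExoNOD replicate 3 was the highest array and exoNOD replicate 2 the lowest, so that the exoNOD arrays spanned the controls on both sides. The change was 0.13 ± 0.12 (limma adjusted p = 0.599; 95% interval −0.14 to 0.40), and it was −0.11 with normexp background correction and −0.01 when arrays were scaled by their median.

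Ets1 encodes a transcription factor prominent in lymphocytes and endothelial cells. Its level was −2.29, −2.77 and −2.48 on the control arrays and −2.19, −2.12 and −2.12 on the exoNOD arrays. All exoNOD arrays lay above all controls, as they did for 14.6% of all genes, and the controls spread over a wider range than the exoNOD arrays (SD 0.24 against 0.04). The change was 0.37 ± 0.15, or 1.29-fold more signal in exoNOD cells, with a 95% interval from 0.03 to 0.72. Ets1 did not pass over all genes (limma adjusted p = 0.281, and 0.115 with the replicate block). With the block and without pair 1 it rose (0.51, limma adjusted p = 0.0356), in a fit where 722 genes fell and 3445 rose. Most of the variance in that fit came from other genes. Of 5 endothelial markers 3 were lower and 2 higher, with a median change of −0.09, and 44.6% of all genes were lower. The block fit gave 2 falls and 1 rise of these markers, beside 1.83% and 6.93% of all genes. Their summed signal was between 6.41 and 7.57 in control and between 7.92 and 8.59 in exoNOD cells. Plvap made up 69.9% of that sum and rose with the block (0.43, limma adjusted p = 0.0211), whereas Cdh5 (−0.80, 0.0347) and Emcn (−0.98, 0.0396) fell. The part of these cells in the level of Ets1 was not tested.

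A second, dimmer Ets1 probe had levels of −5.29, −5.12 and −4.78 in control and −4.80, −4.25 and −4.56 in exoNOD cells. Its groups overlapped at their edge only, between control replicate 3 and exoNOD replicate 1. Its change was 0.53 ± 0.22 (limma over all probes, adjusted p = 0.299), in the same direction as that of the brighter probe. Both probes carry the same RefSeq accession, so they are measurements of 1 gene.

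Among the signalling genes, Inpp5d encodes SHIP1, a phosphoinositide phosphatase of blood cells that restrains signalling through phosphoinositide 3-kinase. Its level was −2.34, −2.52 and −2.50 in control and −2.94, −2.49 and −2.87 in exoNOD cells. ExoNOD replicates 1 and 3 were below all controls, while exoNOD replicate 2 lay among them. The change was −0.31 ± 0.16 (limma adjusted p = 0.351, and 0.200 with the replicate block), with a 95% interval from −0.68 to 0.05. The direction turned with normexp background correction (0.29). Only when median scaling and the replicate block were combined did Inpp5d fall (−0.45, limma adjusted p = 0.0102), in a fit where 2078 genes fell and 2100 rose.

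Inpp5d is made mainly by blood cells, and markers of such cells were read on the same arrays. Of 10 markers of macrophages and dendritic cells 9 were tested, 6 of them lower and 3 higher in exoNOD cells, with a median change of −0.07. Of all genes, 44.6% were lower. With the replicate block 2 of them fell, Adgre1 (−0.87, limma adjusted p = 0.0157) and Itgam (−0.50, 0.00889), and Mrc1 rose (2.20, 0.00172). Of all genes 1.83% fell and 6.93% rose with the block. No probe was matched to the tenth, Cd68. Their summed signal, in units of the 75th percentile, was between 22.5 and 25.5 on control arrays and between 17.3 and 18.5 on exoNOD arrays. Itgam alone made up 72.8% of that sum, and Mrc1 and Lyz2 were above background on 4 and 5 of the 6 arrays. Of 10 T lymphocyte markers 8 were tested, 2 lower and 6 higher with a median change of 0.39. With the block 3 rose, as did 6.93% of all genes. Their sum was between 14.3 and 19.2 in control and between 14.4 and 18.9 in exoNOD cells, 67.0% of it from Cd3e. The T cell receptor subunit genes Cd3d and Cd3g were well above background on at most 2 and 0 arrays. The 5 B lymphocyte markers were all higher, as were 14283 of 25780 genes, with a median change of 0.67. For 4 of them all exoNOD arrays lay above all controls, as for 14.6% of all genes. With the block 2 of the B lymphocyte markers rose, as did 6.93% of all genes. Their sums were dim, between 0.188 and 0.222 in control and between 0.322 and 0.371 in exoNOD cells. Ms4a1 and Blk were above background on only 3 and 4 of the 6 arrays. Probes were kept if all arrays of 1 group passed, so that filter may itself favour a difference in such genes. The part of such cells in the levels of Inpp5d, Ikbke and Ets1 was not tested, and in bulk RNA fewer cells of a type and less RNA per cell cannot be told apart.

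Tab2 encodes an adaptor that links ubiquitin chains to the kinase TAK1 in the NF-kB and interleukin 1 pathways. Its level was 0.24, 0.49 and 0.59 in control and 0.22, 0.26 and 0.36 in exoNOD cells. Control replicate 1 was as low as the exoNOD arrays, and the other controls lay above all of them. The change was −0.16 ± 0.12 (limma adjusted p = 0.515; 95% interval −0.43 to 0.11), with pair differences of −0.02, −0.23 and −0.23.

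Ikbke encodes IKK epsilon, a kinase that activates interferon regulatory factors. Its level was −2.29, −2.03 and −2.07 in control and −2.40, −2.03 and −2.34 in exoNOD cells. The replicate 2 arrays of both groups had nearly the same level, and exoNOD replicates 1 and 3 lay below all controls. The change was −0.12 ± 0.15 (limma adjusted p = 0.697; 95% interval −0.46 to 0.22), and 0.34 with normexp background correction.

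Among the genes of cell structure and traffic, Rhoa encodes a small GTPase that controls the actin cytoskeleton. Its level was 3.41, 3.30 and 3.37 in control and 3.49, 3.18 and 3.55 in exoNOD cells. Both the highest and the lowest array were exoNOD arrays, and the change was 0.05 ± 0.12 (limma adjusted p = 0.850; 95% interval −0.21 to 0.31). A second Rhoa probe with the same accession read 2.19, 2.54 and 2.14 in control and 2.21, 2.07 and 2.07 in exoNOD cells, a change of −0.18 ± 0.12 (limma over all probes, adjusted p = 0.503). The probes differed in direction, and neither passed.

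Picalm encodes a clathrin assembly protein that acts in endocytosis. Its level was 3.14, 3.19 and 3.35 in control and 3.21, 3.23 and 3.37 in exoNOD cells. Each exoNOD array lay slightly above the control of its number, by 0.02 to 0.07, while the groups overlapped across most of their range. The change was 0.04 ± 0.10 (limma adjusted p = 0.841), and the 95% interval ran from −0.18 to 0.27.

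**Figure D2:**
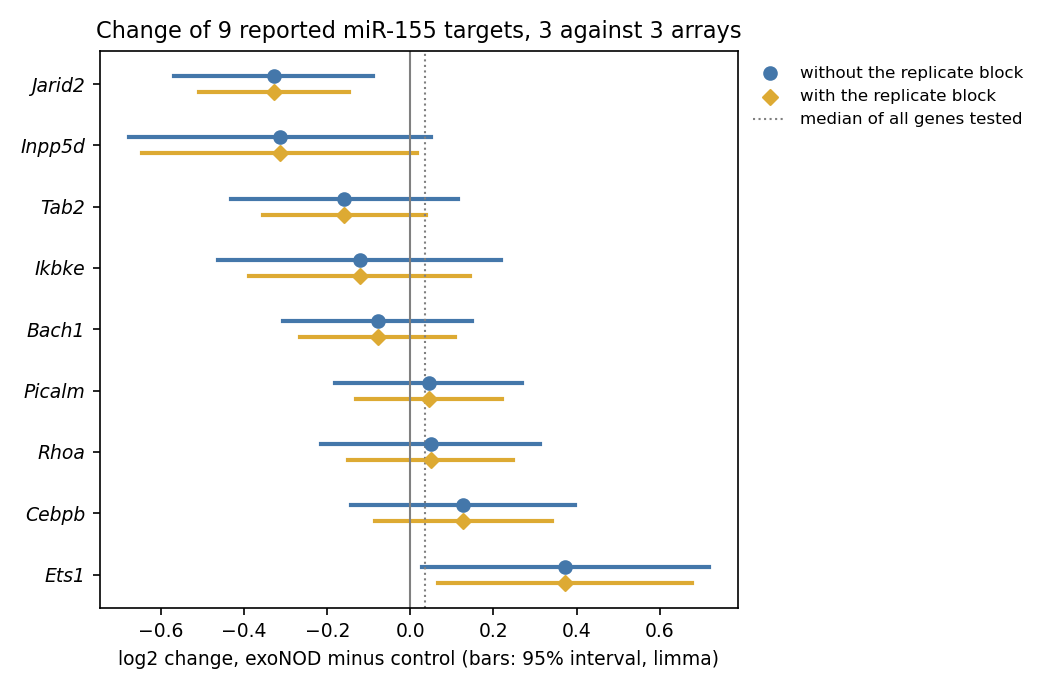
Log2 change of each gene, exoNOD minus control (horizontal axis), with its 95% interval in limma without (circles) and with (diamonds) the replicate block; the dotted line is the median of all genes tested, 0.04. The intervals of Jarid2 (−0.57 to −0.09) lie below 0 and those of Ets1 (0.03 to 0.72) above it; intervals are not adjusted for the number of genes.

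The genes whose profile over the 6 arrays was most like that of Jarid2 were Mfsd13a (Pearson r = 0.995), Urgcp (0.994) and Klf9, a Krüppel-like transcription factor (0.994). Their changes were −0.34, −0.28 and −0.35, and with the replicate block Mfsd13a (limma adjusted p = 0.0356) and Klf9 (0.0255) fell while Urgcp did not pass (0.0607). Of 16269 named genes compared, 528 had an r above 0.9 with Jarid2, so such likeness over 6 arrays is common. For Ets1 the most like were Aass, an enzyme of lysine breakdown (0.991), the kinesin gene Kif17 (0.990) and Npas4, an activity-induced transcription factor (0.980), with 126 genes above 0.9. None of these 3 passed in limma with the block (adjusted p = 0.0855, 0.261 and 0.203). The correlations describe these 6 arrays, which share the group difference.

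A wider list of 32 other genes reported as miR-155 targets gave 29 that were tested; Spi1, Arg2 and Ctla4 were not well above background on all arrays of either group. By group means 13 were lower and 16 higher in exoNOD cells, with a median change of 0.06 against 0.04 for all genes and a range from −0.54 to 0.60. In limma 0 passed without the block. At an unadjusted p under 0.05 there were 2, beside 3.37% of all genes lower and 13.3% higher. With the replicate block 1 fell, 2 rose and 26 did not pass, beside 1.83% and 6.93% of all genes.

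The fall was that of Pdcd4, which encodes an inhibitor of translation initiation and a tumour suppressor. Its level was 4.37, 4.44 and 4.33 in control and 3.94, 3.82 and 3.77 in exoNOD cells. All exoNOD arrays lay below all controls, as they did for 7.78% of all genes. The change of −0.54 ± 0.09, or 1.45-fold more signal in control cells, was the largest fall of the wider list. Pdcd4 did not pass without the block (limma adjusted p = 0.0815) and fell with it (0.00548). It also fell with the block when any 1 pair was left out (limma adjusted p between 0.000412 and 0.0453). In such fits limma took most of the variance from other genes, so these p-values say little of Pdcd4's own spread. Without pair 1 its standard error was 0.14, against 0.09 with all pairs, though the adjusted p was lower. Pdcd4 did not pass with normexp background correction and the block (−0.77, 0.107). Without exoNOD replicate 1 it fell in the fit without the block too (−0.58, 0.0250), where slide and group cannot be told apart. On slide 1 the difference was −0.44.

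Socs1, which encodes a feedback inhibitor of cytokine signalling through JAK kinases and is among the best known miR-155 targets in T lymphocytes, moved the other way. Its level was 0.89, 1.38 and 1.39 in control and 1.52, 1.59 and 2.19 in exoNOD cells. All exoNOD arrays lay above all controls, as they did for 14.6% of all genes. The change was 0.55 ± 0.20, or 1.46-fold more signal in exoNOD cells (limma adjusted p = 0.254). With the replicate block Socs1 rose (limma adjusted p = 0.0161), but not with normexp background correction and the block (0.37, 0.491). It also rose when any 1 pair was left out (0.000465 to 0.0311), in fits that took most of their variance from other genes. On slide 1 the difference was 0.30.

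Fos, a subunit of the AP-1 transcription factor, had levels of −3.99, −4.16 and −3.24 in control and −3.41, −3.60 and −2.59 in exoNOD cells. The groups overlapped because replicate 3 was the highest array of both, but the pairs differed by 0.59, 0.56 and 0.65. The change was 0.60 ± 0.32 (limma adjusted p = 0.368), and with the replicate block Fos rose (0.0349). That call was lost with the block after quantile normalization (0.43, limma adjusted p = 0.108), with normexp background correction (0.75, 0.732), without pair 2 (0.104) and without pair 3 (0.172). Fgf7, a fibroblast growth factor that acts on epithelial cells, changed by 0.45 ± 0.21 and did not pass in limma (adjusted p = 0.320, and 0.151 with the block). Its pair differences were 0.15, 1.11 and 0.09. With the block it passed without pair 1 (0.60, limma adjusted p = 0.00494) or pair 3 (0.63, 0.0146) and not without pair 2 (0.12, 0.593). In the fits without pairs 1 and 3, 3445 and 1491 of 25780 genes rose, and most of the variance came from other genes. Pair 2 was part of each fit in which Fgf7 passed. Without exoNOD replicate 2 the change was 0.22 in the fit without the block. Its exoNOD replicate 2 stood at −1.43, above the other 5 arrays, which lay between −2.54 and −2.05.

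**Figure D3:**
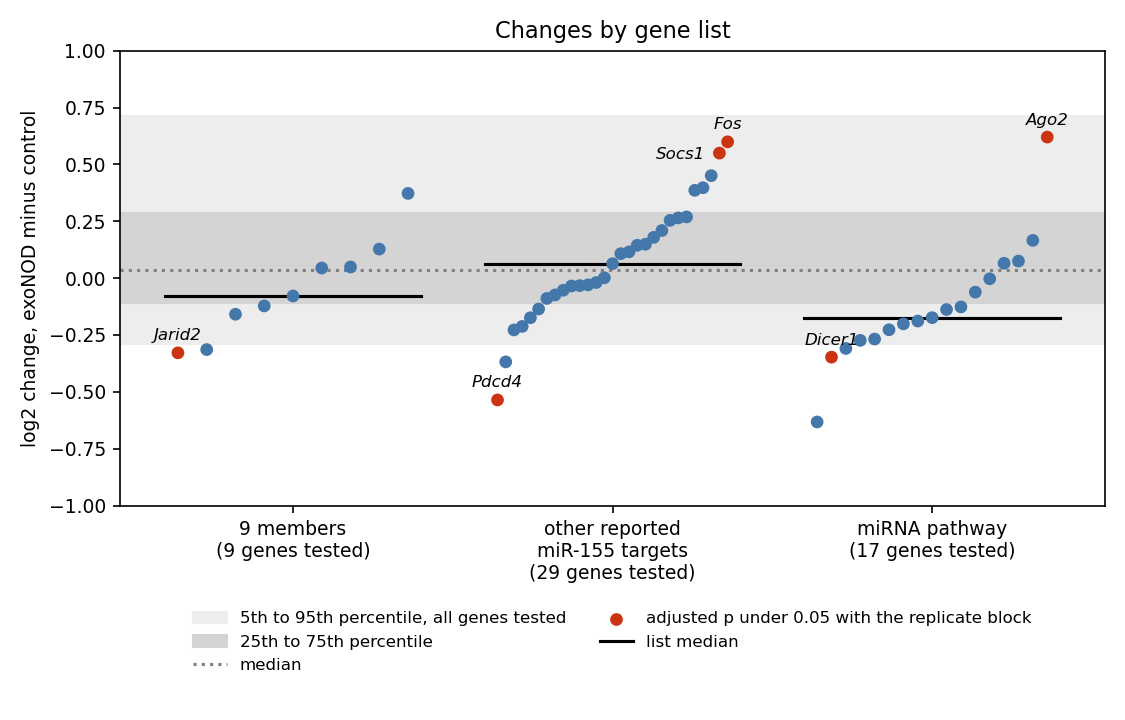
Log2 change, exoNOD minus control (vertical axis), of the 9 genes, of 29 other reported miR-155 targets and of 17 genes of the miRNA pathway, each list in ascending order. Black lines are list medians (−0.08, 0.06 and −0.17), grey bands the middle ranges of all genes tested, and red named points passed limma with the replicate block; Ago2 is shown by its brighter probe.

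The proteins that make and use microRNAs were read as a separate list of 18 genes, of which 17 were tested; no probe was matched to Mir155hg. By group means 13 were lower and 4 higher in exoNOD cells, with a median change of −0.17, the farthest of the 3 lists from the 0.04 of all genes. In limma 0 passed without the replicate block (1 at an unadjusted p under 0.05), and with it 1 fell, 1 rose and 15 did not pass. Of all genes 44.6% were lower, and 1.83% fell and 6.93% rose with the block. At an unadjusted p under 0.05 without it, 3.37% of all genes were lower and 13.3% higher.

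Ago2, the Argonaute protein that can itself cut a paired target, had levels on its brighter probe of 0.85, 0.79 and 0.92 in control and 1.15, 1.56 and 1.70 in exoNOD cells. All exoNOD arrays lay above all controls, as they did for 14.6% of all genes. ExoNOD replicate 1, which shares the slide of the controls, was the lowest of its group. The change was 0.62 ± 0.14, or 1.54-fold more signal in exoNOD cells (limma adjusted p = 0.130), and with the replicate block this probe of Ago2 rose (0.00712). On slide 1 the difference was 0.30. When exoNOD replicate 1 was left out, so that slide and group cannot be told apart, the probe passed without the block too (0.78, adjusted p = 0.0136). With the block it did not pass without pair 2 (0.54, adjusted p = 0.114) or with normexp background correction (0.43, 0.329).

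A second, dimmer Ago2 probe with the same accession went the other way. It read 0.69, 0.75 and 0.74 in control and 0.50, 0.65 and 0.41 in exoNOD cells. All exoNOD arrays were below all controls, as they were for 7.78% of all genes. Its change was −0.20 ± 0.10, and it did not pass (limma over all probes, adjusted p = 0.365, and 0.158 with the block). With the mean of both probes the change of Ago2 was 0.21 (limma adjusted p = 0.346), so no direction is given for the gene.

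Dicer1, the nuclease that cuts hairpins such as that of miR-155 into mature microRNAs, had levels of 0.76, 0.86 and 0.45 in control and 0.41, 0.60 and 0.02 in exoNOD cells. The groups overlapped, while each pair differed downward, by −0.36, −0.26 and −0.43. The change was −0.35 ± 0.17 (limma adjusted p = 0.335), and with the replicate block Dicer1 fell (0.0338). With the block it did not pass after quantile normalization (−0.32, limma adjusted p = 0.0622), with normexp background correction (−0.36, 0.621), without pair 2 (0.0930) or without pair 3 (0.160). On slide 1 the difference was −0.28. The deadenylase subunit genes Pan2 and Pan3 changed by −0.27 ± 0.12 and −0.20 ± 0.09 and did not pass in limma (adjusted p = 0.312 and 0.318, and 0.0625 and 0.136 with the block).

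**Figure D4:**
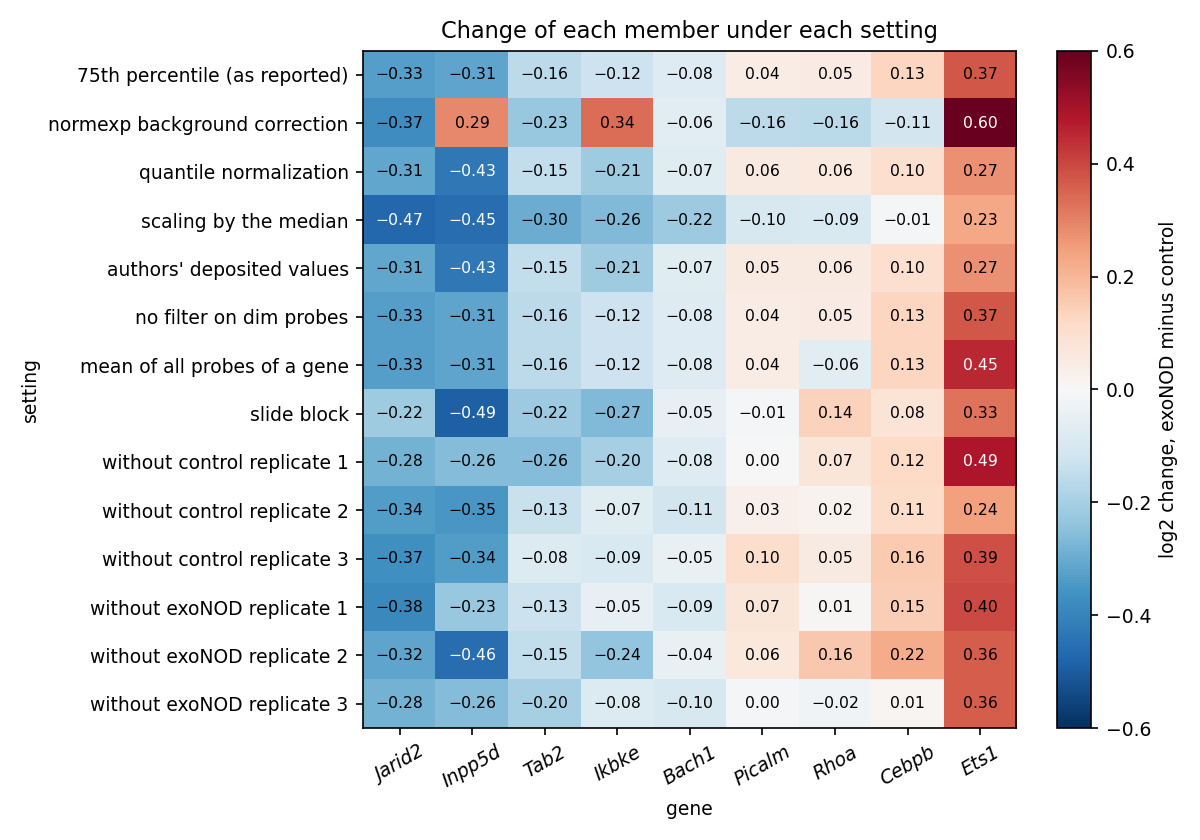
Log2 change, exoNOD minus control (colour and printed value), of the 9 genes (columns) under the reported setting and each alternative without the replicate block (rows). Jarid2, Tab2 and Bach1 were below 0 and Ets1 above 0 in every row, whereas Inpp5d, Ikbke, Picalm, Rhoa and Cebpb changed sign in at least 1.

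Under all 21 alternatives the changes of Jarid2 stayed between −0.47 and −0.22, those of Tab2 between −0.30 and −0.08, those of Bach1 between −0.22 and −0.04 and those of Ets1 between 0.23 and 0.60. Of these 4 genes Jarid2 passed the threshold under 3 alternatives and Ets1 under 1, all with the replicate block.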

How the data were processed

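Cy3-labelled cRNA from total RNA was read on Agilent arrays of 1 colour. Per the file headers, the scanner files hold intensity values that Agilent Feature Extraction 11.0.1.1 had corrected for background, with spot flags of 0 or 1 (other values). A table of log2 values deposited by the authors had a median of 7.92 per array and differed little from quantile-normalized signals.

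Outlier spots were dropped, spots of a probe averaged as log2, and the 75th percentile of the array subtracted. Probes well above background on all arrays of 1 group were kept (31065 of 39429). RefSeq accessions named 27234 probes and left 12195 unnamed; 10 genes without a value on every array were dropped. The array design names build mm9, so no gene positions are given.

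Groups were compared with limma 3.58.1 (R 4.3.3, with version 1.17.8 of the data.table package; trend, two-sided, Benjamini-Hochberg over 25780 genes). Across genes, deviations from group means correlated at 0.366, 0.281 and 0.480 between equal replicate numbers and between −0.341 and 0.0087 otherwise, so the numbers were taken as pairs. Genes are not independent. Subtracting group means makes these correlations offset each other, so part of that contrast is built in. The pairing was also read from the same data that the block fit uses. Without the block, p-values rest on the spread between 3 experiments per group. With the replicate block they rest on the spread of the 3 pair differences. In each fit limma draws a gene's variance toward a trend over all genes. With 1 pair left out, or with the block after scaling by the median, that trend set most of it. In the latter fit Jarid2, Bach1 and Tab2 had standard errors of 0.137, 0.136 and 0.137. The arrays of pairs 2 and 3 were read in different scans. The members, lists and rules were chosen with earlier results of these data known. Named genes are all members, list genes past the threshold in either fit filled to 4 by p, and the 3 most like profiles. Marker lists not given beside a result had median changes of −0.08 (alpha and delta cell), 0.09 (fibroblast and stellate cell) and −0.04 (acinar and duct cell). The files hold no mean spot signal under the planned name, so normexp (offset 50) used the median signal. The fit was checked on simulated data.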

Additional observations from a re-analysis of the deposited data

How the results depend on the processing

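All 9 genes were well above background, with Inpp5d, Ikbke and Ets1 the dimmest, and 3 arrays per group limit the precision. With the replicate block 1 of the 9 genes fell, 3 of the other reported targets passed and 2 of the miRNA pathway genes passed, against 0 of each without it; the block changed no other call in these 3 lists. The other settings with the block were, except after quantile normalization, chosen after the data were seen. With the block the wider list had 2 calls and the pathway list 1 after quantile normalization and in the authors' deposited values. Over all genes 389 fell and 863 rose in the former, and 329 and 772 in the latter. Scaling by the median with the block gave 4 and 7 calls, beside 2078 falls and 2100 rises over all genes. There 2 members fell (Jarid2 and Inpp5d), and the median change of the members was −0.22, as it was without the block. Leaving out 1 array gave 0 falls and 0 rises of members and 0 to 1 calls in the wider list and in the pathway list, each call without exoNOD replicate 1. Leaving out 1 pair with the block gave 0 to 1 falls and 0 to 1 rises of members, 2 to 5 calls in the wider list and 0 to 3 in the pathway list. The median change of the members lay between −0.09 and −0.04 in those fits. Signs turned with normexp, with or without the block, for Inpp5d (0.29), Cebpb (−0.11), Ikbke (0.34), Rhoa (−0.16) and Picalm (−0.16), where the median change of all genes was 0.35. Scaling by the median, with or without the block, turned Cebpb (−0.013), Rhoa (−0.092) and Picalm (−0.096). Rhoa also turned with the mean of its probes (−0.063), without exoNOD replicate 3 (−0.022, in a range up to 0.163 over the arrays left out) and with the block without pair 3 (−0.017), and Picalm with the slide block (−0.014) and without exoNOD replicate 3 (−0.0049, in a range up to 0.104). None of the changes that turned passed the threshold. Beyond the arrays and genes each setting uses, the cause was not tested. Over all genes 1 fell and 26 rose in limma, against 472 and 1787 with the block, 39 and 117 with normexp, 17 and 22 after quantile normalization, 1 and 18 with the mean of probes, 1 and 12 with arrays scaled by their median, and 0 and 0 in the authors' deposited values (3842 at an unadjusted p under 0.05), without the filter on dim probes (4635) and with the slide block (929). Leaving out 1 array gave 59 falls and 1212 rises without exoNOD replicate 1, 3 and 73 without control replicate 3, 0 and 2 without exoNOD replicate 3, and 0 and 0 without exoNOD replicate 2 (3050), control replicate 1 (2556) or control replicate 2 (2421). With the block and 1 pair left out, 722 and 3445, 75 and 364, and 244 and 1491 genes fell and rose without pairs 1, 2 and 3.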
